A study of Drosophila melanogaster with 6 samples.

Results

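Translation factors are the proteins that load messenger RNA and the first tRNA onto the ribosome (initiation factors, eIF) and then move the ribosome along the message while amino acids are added (elongation factors, eEF). In initiation, eIF4E binds the cap of the mRNA, eIF4G bridges it to the eIF3 complex on the small ribosomal subunit, the helicase eIF4A unwinds the leader, and eIF2 brings the initiator tRNA and is recharged with GTP by eIF2B. In elongation, eEF1alpha delivers each aminoacyl-tRNA, the eEF1beta, eEF1gamma and eEF1delta subunits recharge it, and eEF2 drives translocation. The fly midgut, where food is digested and absorbed, secretes large amounts of enzyme and so depends on this machinery.

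The genes described here are all those whose symbol in the count files starts with eIF or eEF followed by a digit. There were 50 of them among 17116 genes, 43 initiation and 7 elongation factors, selected by that symbol rule alone. RNA was sequenced from midguts of Drosophila melanogaster females with the genotype w1118, a laboratory stock with white eyes that the labels call wild-type, all 8 days old. The groups were mated females, taken 3 days after mating (3 samples), and virgin females (3 samples), with 30 guts pooled in each sample. The labels give no transgene and no treatment other than mating. Because whole guts were pooled, fewer cells of a type and less RNA per cell cannot be told apart.

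The depth was 16.3e6 to 25.5e6 gene counts in mated and 15.9e6 to 29.0e6 in virgin libraries. The midgut label was borne out by 4 enterocyte markers (nub, Myo31DF, betaTry, alphaTry). Their levels, and every level below, are in CPM (counts per 1e6 counts of the TMM-scaled library size). The 4 summed to 40300 to 54300 CPM in mated and 36200 to 43900 CPM in virgin libraries. Most of this sum came from alphaTry and betaTry, which averaged 26040 and 19550 CPM in mated and 23690 and 16280 CPM in virgin libraries. nub and Myo31DF averaged 130.5 and 511.5 CPM in mated and 112.1 and 552.8 CPM in virgin libraries. Of 4 visceral muscle markers 3 were called higher in mated midguts. The 4 summed to 1380 to 2150 CPM in mated and 733 to 933 CPM in virgin libraries. Of 2 tubule markers, Uro was called higher in mated midguts. Its level was 13.6 to 44.8 CPM in mated and 1.17 to 3.63 CPM in virgin libraries. The other, Irk2, was not called and went the opposite way. It had 21.8 to 33.1 CPM in mated and 33.9 to 38.3 CPM in virgin libraries. The 5 ovary and germline markers summed to 0.58 to 2.74 CPM in the mated libraries, and to 0.631, 47.5 and 1.06 CPM in virgin 1, virgin 2 and virgin 3, so virgin 2 stood apart. The 3 fat body markers summed to 41.6 to 104 CPM in mated and 49.7 to 170 CPM in virgin libraries, with the highest value in virgin 2, and the 2 haemocyte markers stayed at or below 2.72 CPM in every library. The part of these other tissues in the results below was not tested; values without virgin 2 are given beside the calls they touch.

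Translation factors as a group took a smaller share of the RNA in mated midguts. They accounted for 1.411%, 1.412% and 1.406% of gene counts in mated 1, 2 and 3, and for 2.281%, 2.314% and 2.196% in virgin 1, 2 and 3. The mated libraries thus lay within a few thousandths of a percent of one another and all below the virgin ones, with means of 1.41 ± 0.00321% in mated and 2.26 ± 0.0609% in virgin libraries (SD, n = 3 each). These shares are relative to raw library size; on the TMM scale, which trims genes with extreme fold changes or levels before it compares libraries, the summed level was 15400 ± 905 CPM in mated and 20800 ± 1260 CPM in virgin libraries. The single gene eEF1alpha1 made up 39.2 ± 0.292% of the translation factor counts in mated and 44.8 ± 1.33% in virgin libraries. Without it the share of gene counts was 0.857 ± 0.00546% in mated and 1.25 ± 0.00666% in virgin libraries.

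**Figure D1:**
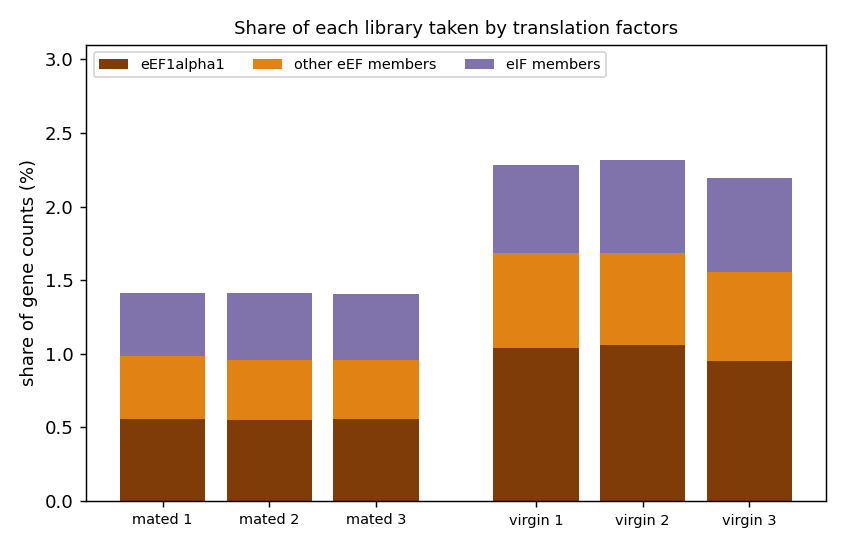
Stacked bars give the percentage of gene counts in each library that came from eEF1alpha1, from the other eEF genes and from the eIF genes, with mated libraries left and virgin libraries right. The 3 mated bars reach 1.406% to 1.412% and the 3 virgin bars 2.196% to 2.314%.

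Of the 50 genes, 40 had enough counts to be tested and 1, eEF1alpha1, fell at an adjusted p below 0.05 by the quasi-likelihood test of edgeR, while 39 did not pass. Over all 8607 tested genes 4.1% were called, 1.63% lower and 2.47% higher in mated midguts. With a single call, the count of called factors is too small to set against that background. Negative log2 fold changes (mated over virgin) were seen in 36 of the 40, or 90%, against 55% of all tested genes. The median log2 fold change was -0.20, against -0.05 over all tested genes. At an unadjusted p below 0.05, 13 factors were lower and 0 higher, where 8.85% of all tested genes were lower and 8.39% higher. That count of 13 moved with single libraries: it was 2 without mated 2, 6 without virgin 1, virgin 2 or mated 3, 7 without virgin 3 and 11 without mated 1, and it was 8 with RLE scaling and 27 with no scaling factor. In 16 of the 40 every mated library lay below every virgin library, which was so for 12.3% of all tested genes, and in 0 did every mated library lie above, against 11.6% of all tested genes.

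The pattern was clearest in the 24 factors at 100 CPM or more, averaged over the 6 libraries. Of these, 23 had a negative log2 fold change and the median was -0.24, where the 1352 tested genes of that level had a median of 0.07 and 42.3% were negative. In edgeR 1 of the 24 was called lower and 0 higher, and 13.3% of the 1352 genes were called, 4.44% lower and 8.88% higher. At an unadjusted p below 0.05, 11 of the 24 were lower and 0 higher, where 15.7% of the 1352 genes were lower and 20.9% higher. In 13 of the 24 every mated library lay below every virgin library and in 0 above, against 17.4% below and 24.9% above among the 1352 genes. The 16 tested factors below 100 CPM had a median of -0.07, with 13 negative. Across the 40 tested factors the level and the log2 fold change had a Spearman's rho of -0.611 with the level in CPM per kb of exon and -0.606 with the level in CPM, given as a description of genes that share the same 6 libraries. Over all 8607 tested genes rho was 0.127 with the level in CPM.

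**Figure D2:**
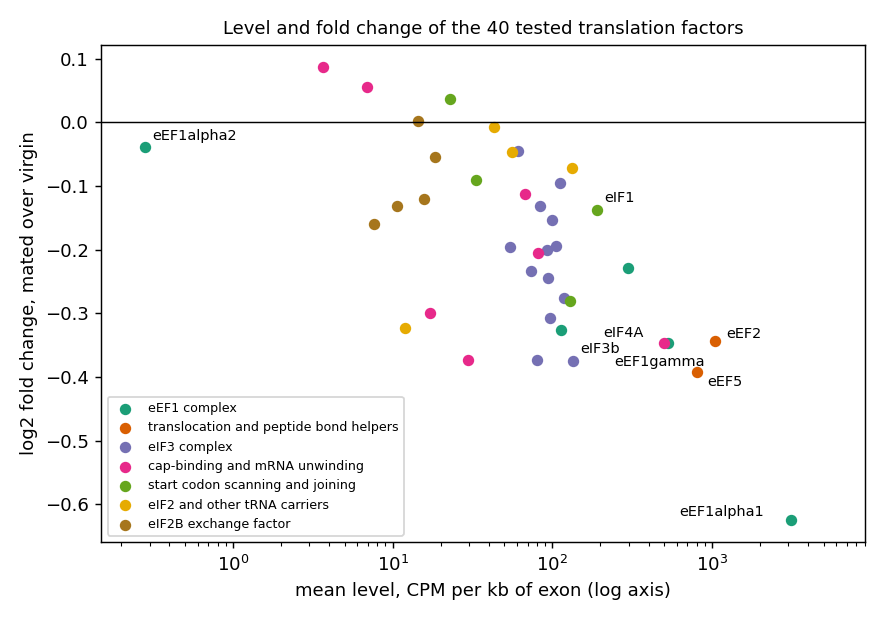
Each point is 1 of the 40 tested translation factors, with its mean level over 6 libraries in CPM per kb of exon on a log axis and its log2 fold change, mated over virgin, coloured by role. The most abundant factors, eEF1alpha1, eEF2 and eEF5, sit at log2 fold changes of -0.62, -0.34 and -0.39, while the 5 eIF2B subunits, all below 20 CPM per kb, sit between -0.16 and 0.00.

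Among the elongation factors, eEF1alpha1 was both the most abundant and the only one called lower in edgeR. This gene (2R, 11891135 to 11895762, plus strand) encodes the GTPase that carries aminoacyl-tRNAs to the ribosome. It had 6472, 5694 and 5973 CPM in mated 1, 2 and 3, and 9995, 9530 and 8431 CPM in virgin 1, 2 and 3. Every mated library was below every virgin library, and the level averaged 6046 ± 394 CPM in mated and 9319 ± 803 CPM in virgin midguts (SD, n = 3 each). The log2 fold change was -0.62 ± 0.13 (SE), a 35.1% lower level, with an adjusted p of 0.0254. The call was lost in 4 of the 6 fits that left out 1 library: the adjusted p was 0.0685 without virgin 1, 0.107 without virgin 2, 0.136 without mated 2 and 0.135 without mated 3, and it passed without virgin 3 (0.0408) and without mated 1 (0.0365). The log2 fold change lay between -0.67 and -0.54 in these 6 fits.

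The paralogue eEF1alpha2 (3R, 31738468 to 31743306), an isoform of the same GTPase, was barely detected. It had 1.05, 0.573 and 0.580 CPM in mated and 0.631, 0.813 and 0.836 CPM in virgin libraries, and the test gave -0.04 ± 0.77 on the log2 scale (SE), with an adjusted p of 0.985. Nearly all eEF1alpha transcripts in these midguts thus came from eEF1alpha1, whose mean level per kb of exon was 11100 times that of eEF1alpha2. The authors' counts leave out reads placed at several positions, so any stretch that the paralogues share is counted for neither gene.

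The subunits that recharge eEF1alpha did not pass the test. eEF1gamma (3R, 29220172 to 29222109), the scaffold of the exchange complex, had 938.7, 689.3 and 757.0 CPM in mated and 1102, 1038 and 891.3 CPM in virgin libraries, and mated 1 overlapped the virgin range (log2 fold change -0.35 ± 0.15, adjusted p = 0.278). eEF1beta (2R, 16868222 to 16869280), an exchange subunit, had 319.8, 218.9 and 246.2 CPM in mated and 328.6, 318.5 and 273.2 CPM in virgin libraries, with mated 1 again inside the virgin range (log2 fold change -0.23 ± 0.16, adjusted p = 0.516). eEF1delta (2L, 10232507 to 10234450), the other exchange subunit, had 89.3, 88.7 and 103.3 CPM in mated and 106.6, 119.0 and 126.9 CPM in virgin libraries without overlap (log2 fold change -0.33 ± 0.13, adjusted p = 0.219). Ratios of counts within a library are free of the choice of scaling. Per eEF1beta count there were 20.2, 26.0 and 24.3 eEF1alpha1 counts in mated and 30.4, 29.9 and 30.9 in virgin libraries, and per eEF1gamma count 6.89, 8.26 and 7.89 in mated and 9.07, 9.18 and 9.46 in virgin libraries. In both ratios the mated libraries all lay below the virgin ones. These pairs were chosen after the values were seen, so the ratios are given without a test.

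The remaining elongation factors had similar sizes of change and no call. eEF2 (2L, 21677913 to 21682164), the translocase, had 3081, 2632 and 2735 CPM in mated and 3904, 3491 and 3330 CPM in virgin libraries (log2 fold change -0.34 ± 0.14, adjusted p = 0.216). eEF5 (2R, 24057798 to 24059483), the hypusine-bearing factor formerly named eIF5A that helps the ribosome past slow peptide bonds, had 543.6, 597.8 and 539.5 CPM in mated and 765.6, 680.0 and 760.2 CPM in virgin libraries (log2 fold change -0.39 ± 0.13, adjusted p = 0.133). Neither gene's groups overlapped, and eEF5 was called lower by DESeq2 (adjusted p = 0.0441). Per eEF2 count there were 2.10, 2.16 and 2.18 eEF1alpha1 counts in mated and 2.56, 2.73 and 2.53 in virgin libraries, again without overlap. All 7 elongation factors had negative log2 fold changes, with a median of -0.34, where 55% of all tested genes were negative. The sign of eEF1alpha2, though, turned without virgin 2, virgin 3, mated 2 or mated 3.

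**Figure D3:**
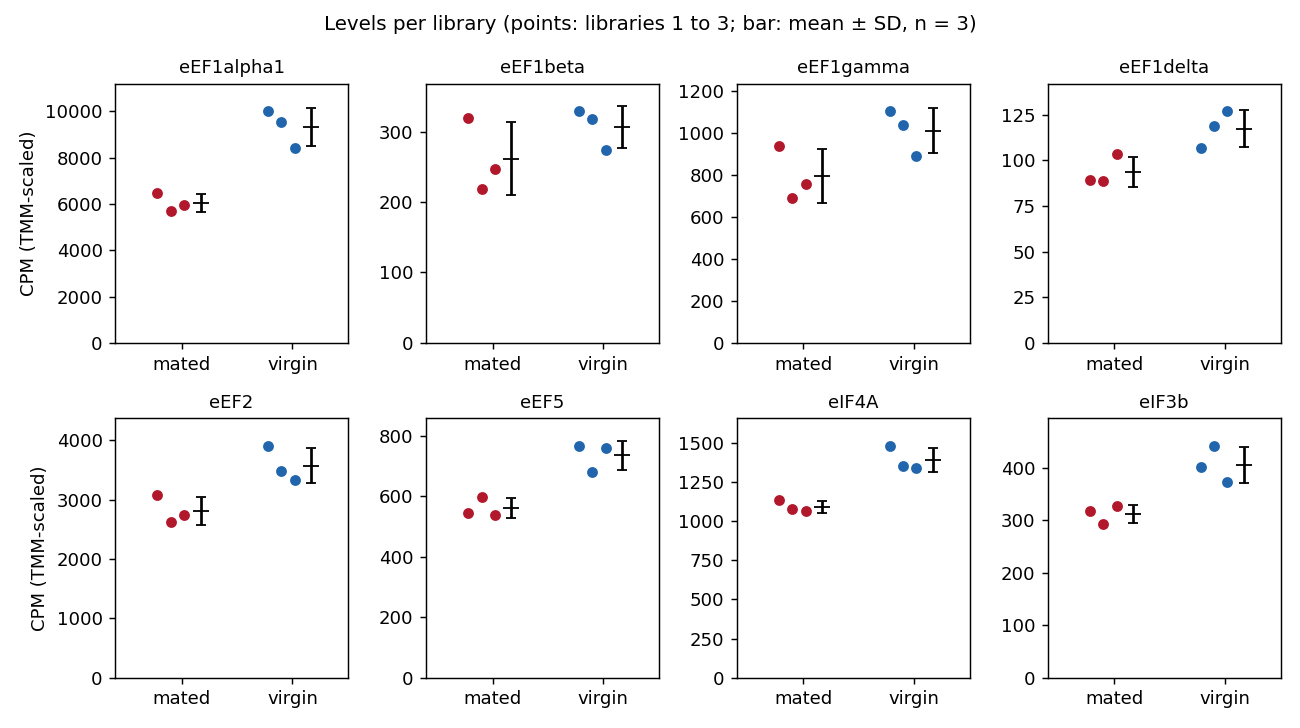
Points are the levels in libraries 1 to 3 of each group, mated left and virgin right, in CPM on axes that start at 0, with the mean ± SD (n = 3) beside them. The groups of eEF1alpha1, eEF1delta, eEF2, eEF5, eIF4A and eIF3b do not overlap, while mated 1 reaches the virgin range for eEF1beta and eEF1gamma.

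The eIF3 complex, the scaffold that holds the small subunit open for the message, is the largest of the initiation factors. Of 16 eIF3 genes 13 were tested, and 0 passed in edgeR or DESeq2. At an unadjusted p below 0.05, 4 were lower, where 8.85% of all tested genes were. All 13 had negative log2 fold changes, from -0.37 to -0.04 (median -0.20), against 55% of all tested genes. The sign of eIF3h turned without virgin 1 and that of eIF3j without virgin 3. In 8 of the 13 every mated library lay below every virgin library, against 12.3% of all tested genes and 17.4% of those at 100 CPM or more. The core subunit eIF3b (2R, 17536213 to 17539142) had 317.4, 293.3 and 326.3 CPM in mated and 400.4, 440.7 and 373.3 CPM in virgin libraries (log2 fold change -0.37 ± 0.13, adjusted p = 0.153). The peripheral subunit eIF3l (3L, 12143446 to 12146097) had 132.3, 123.0 and 127.9 CPM in mated and 177.9, 172.8 and 145.5 CPM in virgin libraries (log2 fold change -0.37 ± 0.13, adjusted p = 0.152). Both had groups that did not overlap.

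Other eIF3 subunits lay closer to the median of the complex. eIF3g1, an RNA-binding subunit, had 93.6, 87.7 and 84.6 CPM in mated and 114.4, 112.1 and 102.5 CPM in virgin libraries (log2 fold change -0.31 ± 0.12). eIF3i had 137.0, 118.7 and 121.6 CPM in mated and 148.3, 161.9 and 146.8 CPM in virgin libraries (log2 fold change -0.28 ± 0.12). eIF3c, a core subunit, had 293.0, 272.6 and 290.2 CPM in mated and 345.5, 366.3 and 302.3 CPM in virgin libraries (log2 fold change -0.24 ± 0.13). Their groups did not overlap, and their adjusted p values were 0.211, 0.279 and 0.372. At the other end, eIF3h and the loosely bound eIF3j had log2 fold changes of -0.10 ± 0.13 and -0.04 ± 0.14, with overlapping groups. Per kb of exon the 13 subunits spanned a narrow range of mean levels, from 53.9 CPM per kb for eIF3a to 134 CPM per kb for eIF3b, 2.49-fold apart, with a median of 93.8 CPM per kb.

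Of the factors that bind the cap and unwind the leader, 7 of 13 were tested and 0 passed in edgeR or DESeq2. At an unadjusted p below 0.05, 3 of the 7 were lower, where 8.85% of all tested genes were. The helicase eIF4A (2L, 5981764 to 5985909) was the most abundant initiation factor per kb of exon. It had 1137, 1077 and 1067 CPM in mated and 1480, 1353 and 1338 CPM in virgin libraries without overlap (log2 fold change -0.35 ± 0.13, adjusted p = 0.18). Its stimulatory partner eIF4B had 28.6, 29.8 and 29.5 CPM in mated and 34.2, 35.9 and 38.1 CPM in virgin libraries (log2 fold change -0.30 ± 0.13, adjusted p = 0.278). Another partner, eIF4H1, had 97.5, 118.7 and 126.7 CPM in mated and 125.5, 140.1 and 178.6 CPM in virgin libraries (log2 fold change -0.37 ± 0.16, adjusted p = 0.259). The groups overlapped for eIF4H1 and not for eIF4B.

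The cap-binding protein and its scaffold had smaller log2 fold changes than the helicase, a difference that was not tested. eIF4E1 (3L, 9399618 to 9402460), the main cap-binding protein, had 138.9, 152.2 and 143.3 CPM in mated and 154.9, 155.4 and 159.2 CPM in virgin libraries, narrowly without overlap (log2 fold change -0.11 ± 0.12, adjusted p = 0.677). The scaffold eIF4G1 (4, 915297 to 930715) had 451.9, 494.4 and 536.9 CPM in mated and 594.3, 462.2 and 652.8 CPM in virgin libraries, widely overlapping (log2 fold change -0.20 ± 0.15, adjusted p = 0.554). Per eIF4E1 count there were 8.19, 7.08 and 7.45 eIF4A counts in mated and 9.55, 8.70 and 8.40 in virgin libraries, so the mated libraries were the lower ones. Per eIF4G1 count the eIF4A counts were 2.52, 2.18 and 1.99 in mated and 2.49, 2.93 and 2.05 in virgin libraries, with overlap. The repressor eIF4EHP, which competes with eIF4E for the cap, had a log2 fold change of 0.06 ± 0.17. The eIF4G paralogue eIF4G2, known for its role in the male germ line, had one of 0.09 ± 0.17. Both turned negative with no scaling factor and without virgin 2. eIF4EHP also turned without mated 2, and eIF4G2 with virgin 2 and mated 1 both left out.

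Of the factors that scan for the start codon and join the subunits, 4 of 5 were tested and 0 passed in edgeR or DESeq2. At an unadjusted p below 0.05, 1 of the 4 was lower, too few to set against the 8.85% of all tested genes. eIF1A (3R, 18274665 to 18283005), which steadies the scanning ribosome, had 194.1, 204.2 and 198.9 CPM in mated and 249.4, 217.5 and 258.7 CPM in virgin libraries without overlap (log2 fold change -0.28 ± 0.13, adjusted p = 0.278). Its partner eIF1, a guard of start codon fidelity, had 109.5, 136.0 and 122.4 CPM in mated and 127.1, 128.9 and 148.6 CPM in virgin libraries with overlap (log2 fold change -0.14 ± 0.13). eIF5B, which joins the ribosomal subunits, and eIF6, which keeps them apart, had log2 fold changes of 0.04 ± 0.15 and -0.09 ± 0.15.

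Values of the eIF2 trimer overlapped between the groups. Of the tRNA carriers and eIF2B subunits, 0 passed in edgeR or DESeq2 or had an unadjusted p below 0.05. At that unadjusted level 8.85% of all tested genes were lower and 8.39% higher. eIF2alpha, the subunit phosphorylated under stress, had 91.8, 77.4 and 82.6 CPM in mated and 92.9, 96.4 and 70.9 CPM in virgin libraries (log2 fold change -0.05 ± 0.15). eIF2beta had 155.7, 140.9 and 139.1 CPM in mated and 143.8, 154.1 and 159.8 CPM in virgin libraries (log2 fold change -0.07 ± 0.12), and the tRNA-binding eIF2gamma averaged 94.6 ± 5.35 CPM in mated and 95.0 ± 6.96 CPM in virgin libraries (log2 fold change -0.01 ± 0.12). The separate tRNA carrier eIF2D had 21.3, 18.5 and 18.6 CPM in mated and 20.5, 23.5 and 29.2 CPM in virgin libraries, with mated 1 inside the virgin range (log2 fold change -0.32 ± 0.18, adjusted p = 0.387). The 5 subunits of the exchange factor eIF2B, between 14.4 and 25.3 CPM in either group, had log2 fold changes from -0.16 to 0.00 and adjusted p values of 0.763 to 0.996. Their mean levels were also close to each other, from 7.61 to 18.3 CPM per kb of exon. The regulatory subunit eIF2Bbeta had 23.8, 22.2 and 26.9 CPM in mated and 20.4, 25.5 and 29.9 CPM in virgin libraries. eIF2Bgamma had 20.2, 27.2 and 22.3 CPM in mated and 23.7, 25.6 and 26.5 CPM in virgin libraries, and for both genes the groups overlapped.

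**Figure D4:**
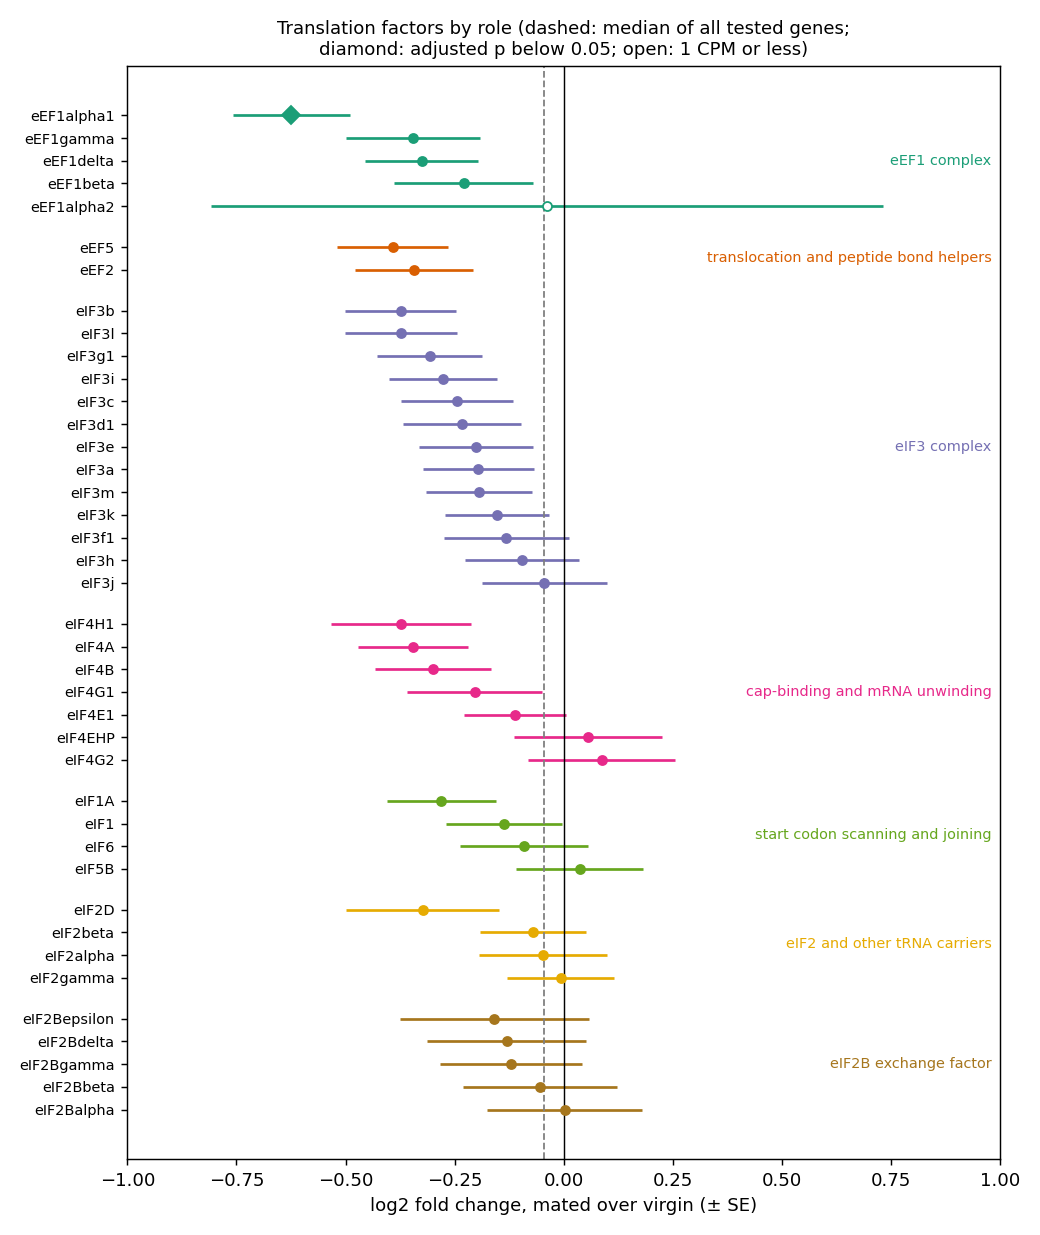
Log2 fold changes, mated over virgin, of the 40 tested translation factors are grouped by role, with bars for ± SE; the dashed line marks the median of all tested genes (-0.05). The eIF3 and elongation factor genes all lie left of 0, from -0.62 to -0.04, while the eIF2 trimer lies between -0.07 and -0.01.

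The libraries did not weigh equally in this picture. Of the 40 tested factors, mated 1 was the highest of the mated libraries in 24 and mated 2 the lowest in 23. The median deviation of the tested factors from their 6-library mean, in log2 units, was -0.03, -0.15 and -0.12 in mated 1, 2 and 3, and 0.08, 0.13 and 0.08 in virgin 1, 2 and 3. The median log2 fold change was -0.26, -0.19 and -0.175 without mated 1, 2 and 3. It was -0.15, -0.16 and -0.19 without virgin 1, 2 and 3.

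The other 10 genes had too few counts to be tested. eIF3d2, eIF3f2, eIF3g2, eIF4E3, eIF4E4, eIF4E5, eIF4E6 and eIF4H2, paralogues of the factors above, had 0 counts in all 6 libraries, which at 3 counts over all libraries allows up to 0.0221 CPM. eIF4E3 and eIF4E5 are known from the testis, and 2 of 3 testis markers were at 0 as well. eIF4E7 had 11 counts in virgin 2, the library with the highest sum of germline markers, 1 in mated 1 and 0 in the other 4. The start codon GTPase activator eIF5 (X, 15987008 to 15991974, minus strand) had 5, 6 and 2 counts in mated and 0 in all virgin libraries. With the virgin group set to a floor of 3 counts in sum, the mated level was 6.13-fold that floor. The counting error of the 13 mated counts is not in this value. That value describes a small part of the gene. In the Ensembl annotation only 615 of its 3203 exonic bases are free of CG46312, a gene annotated on the same strand over the same exons, and CG46312 itself was at 0 counts in all 6 libraries. Reads that touch both genes are not counted for either in this layout, so the level of eIF5 cannot be read from these counts. eIF4EHP, eIF4G2 and eIF2gamma also share some exonic bases with a neighbour on the same strand, and keep 5971 of 6418, 8318 of 9097 and 1851 of 2203 bases of their own.

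Factors named otherwise in the files were looked at for completeness, and were chosen after their symbols were seen. CG7414, now named eIF2A, averaged 204.3 ± 37.3 CPM in mated and 235.5 ± 15.4 CPM in virgin libraries (log2 fold change -0.20 ± 0.15). kra, an eIF5 mimic also named eIF5C, averaged 385.0 ± 32.1 CPM in mated and 391.9 ± 37.5 CPM in virgin libraries (log2 fold change -0.03 ± 0.13). Neither passed.

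The factors were set beside other parts of the translation apparatus as a description. Of 83 tested cytosolic ribosomal protein genes 7 were called lower, where 1.63% of all tested genes were. Negative log2 fold changes were seen in 81, against 55% of all tested genes. Their median was -0.43, beyond the -0.34 of the elongation and the -0.15 of the initiation factors. The 7 calls became 1 without virgin 1, virgin 2 or virgin 3, 0 without mated 2 or mated 3, 9 without mated 1, and 32 in DESeq2. Of 18 cytosolic aminoacyl-tRNA synthetases, which charge tRNAs, 0 passed in edgeR or DESeq2, the median was -0.02, and 1 had an unadjusted p below 0.05, with the lower level in mated midguts. The 9 factors of mitochondrial translation had 0 calls in edgeR, 0 below an unadjusted p of 0.05 and a median of -0.15. Among these, mEFTu1, which delivers tRNAs inside mitochondria, and mEFTs had log2 fold changes of 0.07 ± 0.15 and 0.16 ± 0.17. At an unadjusted p below 0.05, 8.85% of all tested genes were lower and 8.39% higher. Per count of ribosomal protein transcripts there were 0.234, 0.261 and 0.260 translation factor counts in mated and 0.240, 0.249 and 0.257 in virgin libraries, so this ratio overlapped between the groups. The corresponding eEF1alpha1 counts were 0.0922, 0.101 and 0.102 in mated and 0.109, 0.114 and 0.111 in virgin libraries, without overlap.

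Among genes that act on or with these factors, Thor, Paip2, Pdcd4 and Rheb fell and Pdk1 rose in mated midguts. Of 41 pathway genes, listed by their known roles but with earlier results of these data in view, 36 were matched and 35 tested: 4 fell, 1 rose and 30 did not pass, where 1.63% of all tested genes were called lower and 2.47% higher. Of the 9 tested cap and poly(A) partners 3 fell and 6 did not pass, among them the eIF4E-binding proteins 4E-T and mxt (adjusted p of 0.593 and 0.763). Pdcd4 (X, 13745577 to 13755406), whose mammalian counterpart binds and blocks eIF4A, had 39.3, 28.7 and 29.9 CPM in mated and 71.2, 124.5 and 72.3 CPM in virgin libraries (log2 fold change -1.45 ± 0.23, adjusted p = 0.00894). Virgin 2 was far above the other libraries, and without it the groups still did not overlap. Paip2 (3R, 12980792 to 12985488), which displaces the poly(A)-binding protein from mRNA, had 34.6, 54.4 and 41.7 CPM in mated and 112.2, 87.6 and 72.0 CPM in virgin libraries (log2 fold change -1.06 ± 0.20, adjusted p = 0.0149). Thor (2L, 3478434 to 3479612), the fly eIF4E-binding protein that keeps eIF4G off the cap-binding protein, had 227.2, 231.1 and 293.7 CPM in mated and 443.7, 424.2 and 334.1 CPM in virgin libraries (log2 fold change -0.68 ± 0.16, adjusted p = 0.0356).

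These regulators' calls differed in how far they rested on single libraries. Pdcd4 lost its call without mated 2 or mated 3 (adjusted p of 0.0561 and 0.0575), and Paip2 without virgin 1, virgin 2 or mated 3 (adjusted p of 0.059, 0.053 and 0.0776). For Thor the adjusted p was 0.115 without virgin 1, 0.117 without virgin 2, 0.108 without mated 1 and 0.166 without mated 2, so the call was lost in 4 fits. The other cap and poly(A) partners did not pass: the abundant poly(A)-binding protein pAbp averaged 1042 ± 60.8 CPM in mated and 1069 ± 165 CPM in virgin libraries, and Lk6, a kinase that phosphorylates eIF4E, had an adjusted p of 0.0701 and a log2 fold change of -0.48 ± 0.13.

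In the branch of the TOR kinase, which releases cap-dependent initiation when nutrients are plentiful, 1 of 10 genes fell, 1 rose and 8 did not pass. Rheb (3R, 5568921 to 5570491), the GTPase that activates TOR, had 57.4, 72.2 and 81.3 CPM in mated and 107.6, 119.2 and 109.9 CPM in virgin libraries (log2 fold change -0.68 ± 0.15, adjusted p = 0.0254). Its call passed in 1 of the 6 fits that left out 1 library, the one without mated 3; without virgin 1, 2, 3, mated 1 or mated 2 the adjusted p was 0.0667, 0.0898, 0.0731, 0.0661 and 0.0907. Pdk1 (3L, 129450 to 145895), a kinase that activates Akt and S6 kinase, had 279.5, 229.5 and 270.8 CPM in mated and 102.1, 65.4 and 112.6 CPM in virgin libraries (log2 fold change 1.48 ± 0.19, adjusted p = 0.00175), and passed in all 6 such fits. Tor itself and S6k had log2 fold changes of -0.07 ± 0.18 and 0.15 ± 0.16.

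**Figure D5:**
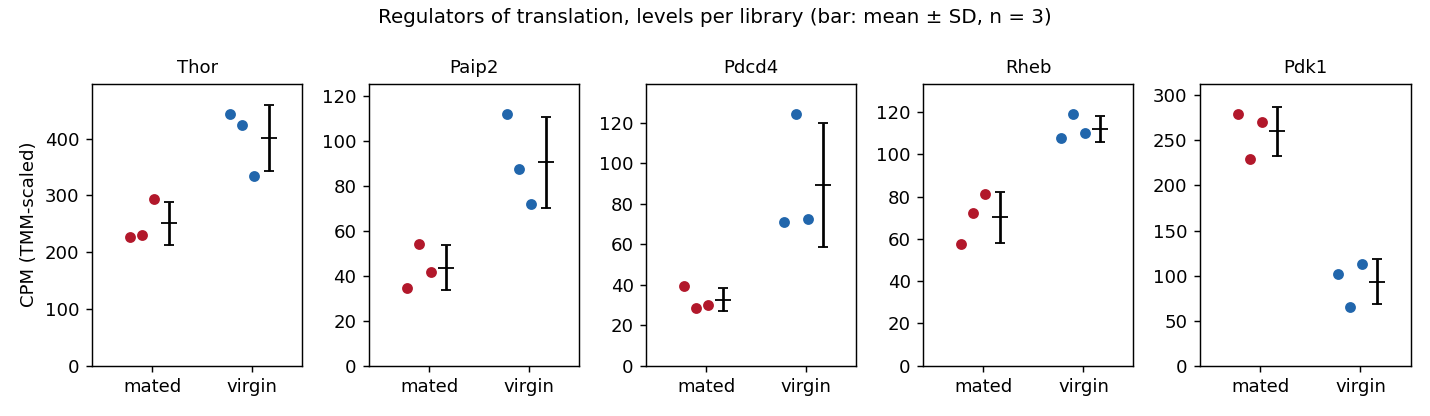
Levels of 5 regulators of translation in libraries 1 to 3 of each group, mated left and virgin right, in CPM on axes that start at 0, with the mean ± SD (n = 3) beside them. For Thor, Paip2, Pdcd4 and Rheb every mated library lies below every virgin library, and for Pdk1 every mated library lies above.

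In the remaining lists 0 of 16 tested genes passed in edgeR. An unadjusted p below 0.05 was seen in 3, counting both directions, where 8.85% of all tested genes were lower and 8.39% higher. Over all 35 pathway genes DESeq2 called 5 lower and 1 higher. Of 5 genes of termination and recycling, the recycling ATPase pix had 184.0 ± 5.84 CPM in mated and 237.0 ± 18.2 CPM in virgin libraries (log2 fold change -0.36 ± 0.12, adjusted p = 0.148), and the termination GTPase eRF3 had a log2 fold change of -0.01 ± 0.14. Of 4 genes around eIF2alpha phosphorylation, the kinases Gcn2 and PEK had log2 fold changes of opposite sign, -0.43 ± 0.19 and 0.28 ± 0.13, both with an unadjusted p below 0.05. The phosphatase subunit PPP1R15 and the transcription factor crc, the fly ATF4, had log2 fold changes of 0.21 ± 0.12 and -0.32 ± 0.15; only 908 of the 3423 exonic bases of crc are free of a neighbour on the same strand. The reinitiation helpers DENR and MCTS1 had log2 fold changes of 0.08 ± 0.20 and -0.20 ± 0.17. Among 5 genes that modify elongation factors or act with them, Dph1, which modifies eEF2, and nero, which completes the hypusine of eEF5, had log2 fold changes of -0.02 ± 0.12 and 0.30 ± 0.16.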

How the data were processed

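RNA was sequenced from 6 pooled midgut samples with a stranded kit that selects polyadenylated mRNA, per the labels' protocols. Per the submitters' processing notes, the tools were CASAVA 1.8.4, STAR and DESeq2 1.42.0 and the build was dm6. Which annotation was counted is not stated in these notes. The authors deposited raw counts of reads for each gene, laid out as STAR writes them, with unstranded, forward and reverse columns. The reverse column was used, which suits a kit that sequences the opposite strand; 1.86% to 2.32% of stranded counts fell in the forward column. Library sizes leave out the 4 rows that name no gene: unmapped reads were 9.23 ± 3.67% in mated and 9.15 ± 2.17% in virgin libraries, reads placed at several positions 6.75 ± 1.01% and 4.73 ± 0.364%, reads outside genes 6.41 ± 1.92% and 6.98 ± 2.06%, and reads shared by genes 1.20 ± 0.0503% and 1.24 ± 0.0529% in the same groups (SD, n = 3 each).

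Counts were fitted over the whole table with edgeR 4.0.16 in R 4.3.3 (filterByExpr, TMM, glmQLFit with robust dispersion, glmQLFTest), with the group as sole term and 2-sided tests, adjusted by Benjamini-Hochberg over 8607 genes, with a threshold of 0.05. TMM factors were 0.86 to 0.965 in mated and 1.04 to 1.13 in virgin libraries. Standard errors were computed from the fold change and the F value. Whether the pools are independent cultures is not given in the labels; the p-values cover only the spread among these 6 samples, which may be technical. Libraries of a group differed by more than sampling noise (chi-square divided by its degrees of freedom, 24.4 or more). Positions and exon lengths come from the Ensembl annotation in dm6 coordinates, which matched 17047 of 17116 symbols and all 50 members. Floors cover counting error only.

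The members follow a symbol rule that uses no measured value, but the group was proposed, and the lists were chosen, with earlier results of these data known. Values per library are given for members that passed, the 15 with the smallest p and the top 2 per role by level per kb, with eEF1beta, eEF1alpha2, eIF4E1, eIF4E7 and eIF5, other members given by their fold changes, and 4E-T, mxt, Lk6, pAbp, Tor, S6k, Gcn2 and PEK added after their values were seen. In other lists, genes that passed or the 2 highest were named. The promoter motifs planned were not analysed here. Alternatives were other scalings and filters, DESeq2 1.42.0, limma-voom (limma 3.58.1), a replicate block, unstranded counts and left-out libraries.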

Additional observations from a re-analysis of the deposited data

How the results depend on the processing

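The share of gene counts taken by translation factors was lower by 0.85 percentage points in mated midguts. It kept its direction and size with unstranded counts and with libraries left out. Being relative to raw library size, it was not run with the other scalings, filters or tools. No factor was called higher in any of the 16 other settings. With no TMM factor the median over all genes was -0.30 in place of -0.05 (log2). The factors' median was then -0.45, and 18 factors were called lower. Their distance from the median of all genes was -0.15 with and without TMM. A scaling factor moves all genes of a library alike, so this distance could hardly change and is no check. Without TMM 872 genes were called (726 lower, or 16.7% higher in place of 60.3%), with 79 ribosomal protein genes and 2 synthetase genes. DESeq2 called 2 factors, 638 genes (391 higher, 247 lower) and 32 ribosomal protein genes; RLE, upper-quartile scaling and a filter of 1 CPM in 3 libraries called 3, 14 and 3 ribosomal protein genes.

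Leaving out 1 library gave 169 to 308 called genes (118 to 208 higher, 51 to 100 lower), 0 or 1 called factor, 1 to 3 other pathway genes lower, 0 to 9 ribosomal protein genes and a median of the factors between -0.26 and -0.15. With virgin 2 and mated 1 both left out, 191 genes (114 higher, 77 lower), 0 factors (eEF1alpha1 adjusted p = 0.115), 1 other pathway gene and 2 ribosomal protein genes were called lower, and the median was -0.24. Of the 40 tested factors 28 kept their sign in all 16 other settings, and 12 uncalled ones turned in at least 1: eEF1alpha2, eIF2alpha, eIF2gamma, eIF2Balpha, eIF2Bbeta, eIF2Bdelta, eIF2Bepsilon, eIF3h, eIF3j, eIF4EHP, eIF4G2 and eIF5B. Most turned, 8, without virgin 2. Over the fits that left out 1 library, eIF2alpha lay between -0.15 and 0.042 (log2), positive without virgin 1, virgin 2 or mated 2, and eIF2Bbeta between -0.16 and 0.11, positive without virgin 3 or mated 2. The cause of these shifts was not tested.

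Same-numbered libraries did not deviate together (correlations of -0.149, -0.068 and -0.032). What the numbers mark is not given in the labels, and 3 libraries per group cannot settle whether they pair the samples. With the replicate block, 1 factor was still called lower (eEF1alpha1 adjusted p = 0.0195), 3 other pathway genes were lower, Thor being lost (adjusted p = 0.0755), and 9 ribosomal protein genes were lower. At this depth the 10 untested factors could not be compared, and counts of eIF5 miss the exons it shares.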
